A study of Mus musculus with 2 samples.

Results

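Neuron-enriched microRNAs were examined in whole adrenal gland, where 10 microRNA genes known from neurons make up 10 of the 2202 genes in the deposited tables. The genes were chosen by symbol, with no threshold on their counts, though earlier results of these data were known. They are Mir9-1, Mir9-2 and Mir9-3, Mir124a-1, Mir124a-2 and Mir124a-3, Mir137, Mir149, Mir218-1 and Mir218-2. The tissue came from wild-type C57BL/6J mice supplied by The Jackson Laboratory, with no transgene or treatment named in the labels. The age and stage are given as unknown, and 1 label calls the animals female where another says that sex was not collected. The series holds 2 libraries in 1 group, numbered as biological replicates 1 and 2, which have separate tissue samples and 1 shared donor identifier. The labels do not state that they came from separate animals, so p-values here measure only the difference between these libraries, which may be technical.

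A microRNA is cut from a hairpin transcript, and either arm of the hairpin (5p or 3p) can become the mature product. The seed, bases 2 to 8 of the mature product, pairs with target messenger RNAs and lowers their output. Neurons use miR-124 and miR-9 to silence non-neuronal genes and to time differentiation, miR-137 to regulate maturation and dendrite growth, and miR-218 in motor neurons. The gene group also holds miR-149, which is studied in many tissues outside the nervous system. Chromaffin cells of the adrenal medulla descend from the neural crest, as sympathetic neurons do, and preganglionic nerve fibres reach them. The steroid-producing cells of the cortex do not share that origin.

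The mature sequences show which of these genes make the same product and therefore which counts can be assigned to a single gene. RefSeq (GRCm38.p6) holds sequences for 7 of the 10 genes. Mir124a-1, Mir124a-2 and Mir124a-3 are given by name only. Capitals mark the seed.
miR-9-5p: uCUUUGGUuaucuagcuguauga
miR-9-3p: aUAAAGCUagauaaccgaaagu
miR-137-3p: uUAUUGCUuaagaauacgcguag
miR-137-5p: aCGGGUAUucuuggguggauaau
miR-149-5p: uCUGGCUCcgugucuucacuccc
miR-149-3p: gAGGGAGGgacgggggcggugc
miR-218-5p: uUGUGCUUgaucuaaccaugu
miR-218-1-3p: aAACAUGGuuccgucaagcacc
miR-218-2-3p: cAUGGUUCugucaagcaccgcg
No seed was shared between miR-9, miR-137, miR-149 and miR-218. Both miR-9 products are the same in all 3 Mir9 genes. The miR-218-5p product is the same in both Mir218 genes, while their 3p products differ. Where the 3p arms overlap over 19 bases, 18 are identical, and the difference is C12U, counted from 1 at the 5′ end of miR-218-1-3p (miR-218-1 base first, then miR-218-2). In those overlaps, capitals mark the differing base.
miR-218-1-3p overlap: caugguucCgucaagcacc
miR-218-2-3p overlap: caugguucUgucaagcacc

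The hairpins of the multi-copy genes are shown to locate the sequence they have in common. Capitals mark every run of at least 18 bases that another hairpin of the RefSeq table also holds on either strand, leaving aside the hairpin annotated opposite the same locus.
Mir9-1 (chr3:88215598-88215686, plus strand): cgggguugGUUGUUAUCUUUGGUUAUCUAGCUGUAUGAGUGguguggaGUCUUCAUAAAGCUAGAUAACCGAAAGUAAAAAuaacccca
Mir9-2 (chr13:83738814-83738885, plus strand): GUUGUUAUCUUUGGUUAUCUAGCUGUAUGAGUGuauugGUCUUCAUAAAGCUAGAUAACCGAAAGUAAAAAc
Mir9-3 (chr7:79505264-79505353, plus strand): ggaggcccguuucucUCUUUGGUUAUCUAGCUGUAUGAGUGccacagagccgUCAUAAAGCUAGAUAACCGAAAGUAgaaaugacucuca
Mir218-1 (chr5:48223942-48224051, plus strand): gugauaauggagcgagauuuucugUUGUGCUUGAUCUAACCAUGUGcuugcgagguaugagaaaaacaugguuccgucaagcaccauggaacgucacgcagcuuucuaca
Mir218-2 (chr11:35616816-35616925, plus strand): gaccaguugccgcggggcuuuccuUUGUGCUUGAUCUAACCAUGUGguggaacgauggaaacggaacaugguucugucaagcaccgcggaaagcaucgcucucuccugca
Shared runs covered 66 of 89 bases in Mir9-1, 66 of 72 in Mir9-2 and 51 of 90 in Mir9-3, and they held both arms in each. In Mir218-1 and Mir218-2 they covered 22 of 110 bases, at the 5p arm. None of the 56 windows of 18 bases in Mir137, and none of the 49 in Mir149, was found in another hairpin.

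The shared runs reach past the mature ends, so slightly longer reads of miR-9 also match several genes. Extended at its 3′ end only, miR-9-5p was found in 1 hairpin alone after 4 added bases in each of the 3 genes. Extended at its 5′ end only, it took 1 base in Mir9-3 and 8 bases in Mir9-1, and in Mir9-2 the hairpin ended first. For miR-9-3p the 3′ distance was 6 bases in Mir9-1 and Mir9-2 and 2 bases in Mir9-3, and the 5′ distance was 7 bases in Mir9-1 and Mir9-2 and 3 bases in Mir9-3. For miR-218-5p it was 2 bases past the 3′ end or 1 base before the 5′ start in both genes. These counts are among RefSeq hairpins, as the whole genome was not searched.

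**Figure D1:**
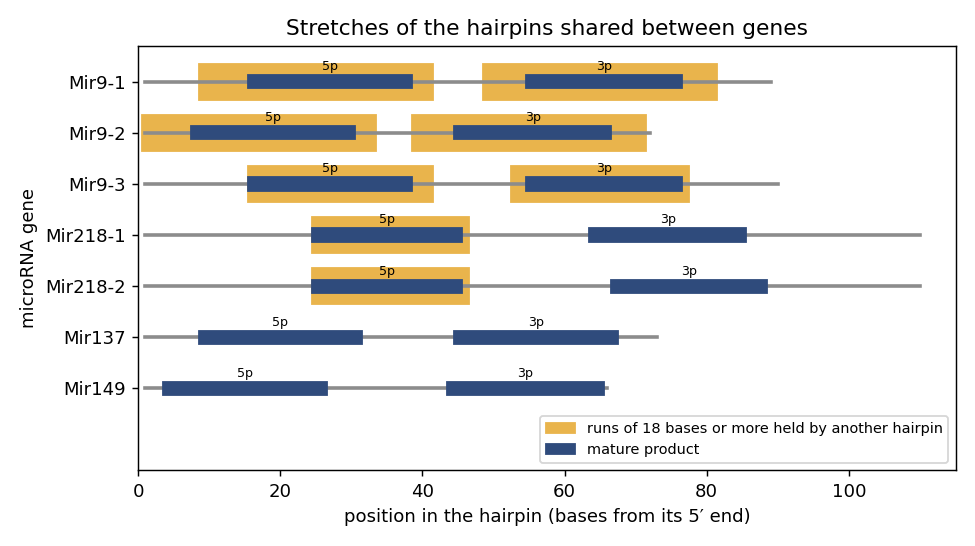
Position in bases from the 5′ end of each hairpin (x axis) for the 7 genes with a RefSeq sequence (y axis), with mature products as narrow dark bars and runs of at least 18 bases held by another hairpin as wide yellow bars. Both arms of the 3 Mir9 hairpins lie inside shared runs, only the 5p arm does in Mir218-1 and Mir218-2, and neither arm does in Mir137 and Mir149.

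The 10 genes lie at 10 separate loci on 8 chromosomes, all on the plus strand of mm10 (GENCODE M21). Mir149 (chr1:92850378-92850443) lies in the intron between exons 1 and 2 of Gpc1, which encodes glypican 1, a cell-surface proteoglycan. Mir218-1 lies between exons 14 and 15 of Slit2 and Mir218-2 between exons 14 and 15 of Slit3, paralogous genes for secreted axon guidance cues. Mir137 (chr3:118433857-118433929) lies within an exon of the noncoding gene Gm26871. Mir9-2 and Mir124a-1 (chr14:64590657-64590741) lie within exons of the long noncoding RNA genes C130071C03Rik and Mir124a-1hg, and Mir9-1 and Mir9-3 in introns of the long noncoding RNA genes Gm3764 and Mir9-3hg. Mir124a-2 (chr3:17795662-17795770) overlaps an exon of Mir124-2hg by 27 bases, and Mir124a-3 (chr2:180894040-180894107) overlaps an exon of Gm27032 by 3 bases.

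By these counts the adrenal libraries held abundant miR-149 and moderate miR-137. Few reads were assigned to the miR-218 genes, and no read to any miR-9 or miR-124 gene. Of the 10 genes, 4 reached 10 counts or more in each library, beside 18.3% of all 2202 genes. The other 6 had 0 counts in both libraries, beside 62.9% of all genes. Together the 10 genes held 0.339% of the counts in replicate 1 and 0.248% in replicate 2. Levels are counts per 1000000 (CPM) of the 9137907 sense reads that microRNA genes received in replicate 1 and the 6570375 in replicate 2. A read spans about 1 mature product, and the products printed above are 21 to 23 bases long, so levels were compared between genes without a further correction for length. In whole tissue, fewer cells of a type and less RNA per cell cannot be told apart.

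Mir149 was the most abundant, with 26556 counts (2906 CPM) in replicate 1 and 14037 counts (2136 CPM) in replicate 2, a mean of 2521 ± 544 CPM (SD, n = 2). It ranked 46 among the 2202 genes by mean level. It alone supplied 85.8% of the summed level of the 10 genes. The replicate 1 value was the higher, and both lay far above the values of every other gene in the group. The 2 genes nearest in level over both libraries, by distance of log2(CPM + 1), were Mir28a (3102 and 2698 CPM) and Mir320 (2669 and 2805 CPM).

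Mir137 had 4238 counts (464 CPM) in replicate 1 and 2131 counts (324 CPM) in replicate 2, a mean of 394 ± 98.6 CPM (SD, n = 2) and rank 116. Its values did not overlap with those of Mir149 in either library. Mir149 had 6.27 times the counts of Mir137 in replicate 1 and 6.59 times in replicate 2. Mir149 therefore held 86.2% of the reads of the pair in replicate 1 (exact Clopper-Pearson 95% interval 85.8 to 86.6) and 86.8% in replicate 2 (86.3 to 87.3). The intervals overlap in part, and the 2 proportions were not tested against each other. Both levels differed between the libraries. The genes nearest to Mir137 in level were Mir338 (484 and 282 CPM), a microRNA known from oligodendrocytes and other glia, and Mir770 (458 and 413 CPM).

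The miR-218 genes were low. Mir218-2 in Slit3 had 154 counts (16.9 CPM) in replicate 1 and 84 counts (12.8 CPM) in replicate 2, a mean of 14.8 ± 2.88 CPM (SD, n = 2). Mir218-1 in Slit2 had 58 counts (6.35 CPM) and 49 counts (7.46 CPM), a mean of 6.90 ± 0.785 CPM (SD, n = 2). Mir218-2 was above Mir218-1 in both libraries with no overlap. It held 72.6% of the reads of the pair in replicate 1 (exact Clopper-Pearson 95% interval 66.1 to 78.5) and 63.2% in replicate 2 (54.4 to 71.4), and the intervals overlap. These counts leave out reads that align to both genes, such as a read of the exact miR-218-5p product, and a gene count does not tell the arms apart, so they are no measure of total miR-218.

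In the order Mir149, Mir137, Mir218-2, Mir218-1, no neighbours had overlapping values over the libraries, but with 2 values against 2 an exact two-sided permutation test cannot go below p = 0.333. Ranks were 273 for Mir218-2 and 310 for Mir218-1, among 403 genes with at least 10 counts in both libraries. The level nearest to Mir218-2 was that of Mir365-2 (18.3 and 11.9 CPM), and the level nearest to Mir218-1 that of Mir3070b (6.24 and 7.46 CPM).

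**Figure D2:**
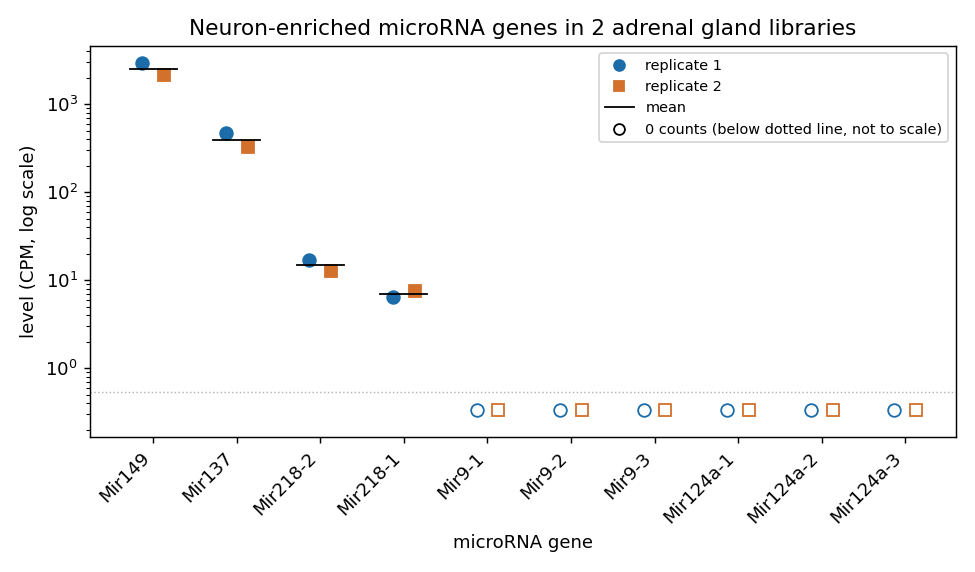
Level in CPM on a log scale (y axis) of the 10 microRNA genes (x axis), with circles for replicate 1, squares for replicate 2, lines for the mean and open symbols for 0 counts. Mir149 lies at 2906 and 2136 CPM and Mir137 between 324 and 464 CPM in the 2 libraries, the Mir218 genes lie between 6.35 and 16.9 CPM, and all Mir9 and Mir124a genes are at 0.

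Mir9-1, Mir9-2 and Mir9-3 had 0 sense and 0 opposite-strand counts in both libraries. Mir124a-1, Mir124a-2 and Mir124a-3 also had 0 sense counts. Mir124a-3 had 2 counts on the opposite strand in replicate 2, under the 3 counts that a count of 0 allows. For a read that can be placed at a single gene, 0 counts allow up to 0.328 CPM in replicate 1 and 0.457 CPM in replicate 2, by counting error alone. The limit does not extend to reads that align to several places. Such reads made up 35.9% of replicate 1 (6721333 reads) and 36.0% of replicate 2 (5210526 reads) and stand in a row of their own, assigned to no gene. Whether they hold miR-9 or miR-124 was not tested, so the zeros do not show that either microRNA was missing from the gland.

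Across the table, genes with shared products differed in how often they had counts. Mature sequences were available for 1018 genes. Of 40 genes with every mature product held whole by another gene, as in the Mir9 genes, which are among them, 31 (77.5%) had 0 counts in both libraries and 6 (15.0%) had at least 10. Of 56 genes with some products shared, as in Mir218-1 and Mir218-2, 7 (12.5%) had 0 counts and 41 (73.2%) at least 10. Of 922 genes with no product shared, as in Mir137 and Mir149, 288 (31.2%) had 0 counts and 310 (33.6%) at least 10. These are counts of genes, many of them copies of each other, and no test was applied.

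**Figure D3:**
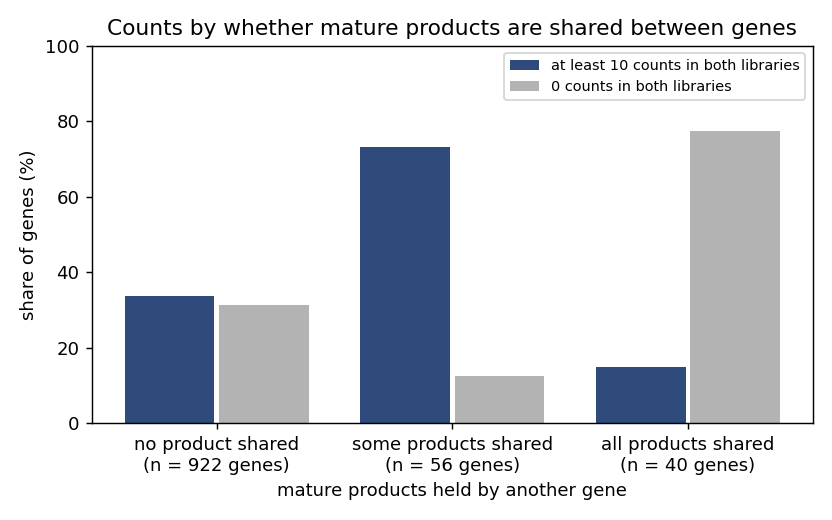
Share of microRNA genes in percent (y axis) with at least 10 counts in both libraries (dark bars) and with 0 counts in both (grey bars), by whether none, some or all of a gene's mature products are held by another gene (x axis). The share with 0 counts is 77.5% where all products are shared, 12.5% where some are and 31.2% where none is.

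Other microRNA genes of the table annotated within 10000 bases of these loci gave no counts either. They were looked up after the zeros had been seen. Mir3093, 341 bases from Mir9-1, Mir3078, 444 bases from Mir124a-1, and Gm24155, 792 bases from Mir137, each had 0 counts in both libraries. Of all genes of the table, 62.9% also had 0 counts in both. Mir3078 and Gm24155 had no sequence to compare. Gm24155 stood at 0 beside Mir137, which had 4238 and 2131 counts. The microRNA gene Gm25641, annotated opposite Mir9-1 and spanning it, was also at 0. That value is no separate observation, as Mir9-1 had 0 opposite-strand counts. Few reads came from genes outside the group that share a seed with it. Mir1943 and Mir7016, which share the miR-149-3p seed, had 15 and 11 counts and 10 and 5 counts. Mir7002, which shares the miR-218-5p seed, had 2 and 0 counts. Gm27740 and Gm27775 (miR-149-3p seed) and Mir496b (miR-218-1-3p seed) had none. No gene of the table with a sequence shared the seed of miR-9-5p, miR-137-3p or miR-149-5p.

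Replicate 2 was compared with replicate 1 to see how much each level varied between the adrenal samples. All 10 genes were entered, and 4 passed the filter of at least 20 counts over both libraries. Mir149 was 1.46-fold higher in replicate 1 (log2 ratio, replicate 2 over replicate 1, -0.55, 95% counting interval -0.58 to -0.52, adjusted p = 1.92e-297, exact binomial test, two-sided, Benjamini-Hochberg adjusted over 426 genes). Mir137 was 1.54-fold higher in replicate 1 (log2 ratio -0.62, interval -0.69 to -0.54, adjusted p = 4.05e-60 by the same exact test). Mir218-2 was 1.41-fold higher in replicate 1 (-0.50, interval -0.90 to -0.11, adjusted p = 0.0202, exact test). With total-count instead of TMM scaling, Mir218-2 had an adjusted p of 0.0723 by the exact test and did not pass. Mir218-1 gave a log2 ratio of 0.13 (interval -0.45 to 0.70) and did not pass.

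These calls set the difference between 2 libraries against counting error, with no replicate of either. Of all 426 tested genes 56.1% passed, of which the replicate 1 library had the higher level for 30.3% of tested genes and the replicate 2 library for 25.8%. Total-count scaling raised all log2 ratios by 0.10 and made those shares 21.8% and 35.2%. The median log2 ratio was -0.52 over the 4 genes of the group and -0.03 over all tested genes. By the size of the ratio, Mir137 exceeded 73.7% of the tested genes, Mir149 69.5%, Mir218-2 66.9% and Mir218-1 24.4%. The middle 80% of tested genes ran from -0.77 to 0.72, which takes in all 4. That range narrowed to -0.543 to 0.565 for the 184 tested genes averaging 100 CPM or more. Mir137 (-0.619) lay below the narrower range and Mir149 (-0.547) just below it. The Mir218 genes, at lower levels, are not among those 184.

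**Figure D4:**
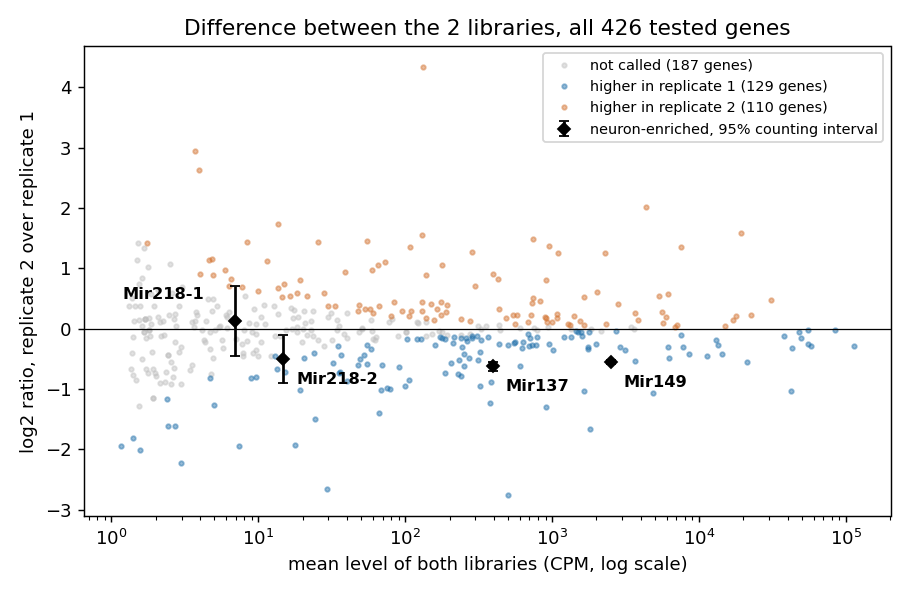
Log2 ratio of replicate 2 over replicate 1 (y axis) against the mean level in CPM on a log scale (x axis) for the 426 tested genes, coloured by call, with the 4 tested neuron-enriched genes as diamonds with 95% counting intervals. Mir137, Mir149 and Mir218-2 lie below 0 among many other genes of either direction, and the interval of Mir218-1 crosses 0.

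Glial and other cell-type microRNAs differed between the libraries too, and their part in these ratios was not tested. Of the 3 glial genes 2 were detected, beside 18.3% of all genes. All 3 together summed to 502 CPM in replicate 1 and 302 CPM in replicate 2. Mir338 led them and was 1.84-fold higher in replicate 1 (adjusted p = 1.15e-114, exact binomial test). Mir219a-1 had 17.5 and 19.2 CPM, and Mir219a-2 had 1 count in each. The 4 neuroendocrine genes summed to 54062 and 51805 CPM, nearly all from Mir375, and 3 of them were higher in replicate 1. Of the 4 leukocyte genes, summing to 1319 and 1176 CPM, 3 were higher in replicate 1 and the fourth in replicate 2. Beside these counts, 30.3% of all tested genes were higher in replicate 1 and 25.8% in replicate 2. For the 3 erythroid genes the sums were 144 and 295 CPM, mostly from Mir451a. Of these 3 genes 2 were higher in replicate 2, and Mir144 (21.1 and 24.8 CPM) did not pass. The 5 fibroblast and smooth muscle genes had sums of 18908 and 15027 CPM, mostly from Mir143. Of the 4 that were tested, 2 were higher in replicate 1 and 1 did not pass. The remaining gene, Mir145a (977 and 1185 CPM), was higher in replicate 2. The endothelial Mir126a had 61677 and 54325 CPM. Mir122, the microRNA of hepatocytes, had 128 and 71.5 CPM and was 1.92-fold higher in replicate 1 (adjusted p = 8.30e-35, exact binomial test). The 4 kidney genes summed to 112 and 118 CPM and the 6 epithelial genes to 717 and 735 CPM. Striated muscle summed to 1.09 and 1.67 CPM with 5 of its 7 genes at 0, among them multi-copy genes, beside 62.9% of all genes at 0. Mir1a-2, named after its values were seen, had 0 sense counts but 37 and 31 counts on the opposite strand. No microRNA specific to adrenal cells was in these lists, so the tissue label was not checked that way.

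Another 21 microRNA genes known from neurons were described beside the group. Of these 17 were detected at the same 10 counts per library, beside 18.3% of all genes. Only 1, Mir135a-1, named after its values were seen, had no counts in both libraries, beside 62.9% of all genes. The 21 genes summed to 8825 and 10402 CPM. The leading genes were Mir328 (2322 and 3297 CPM), Mir433 of the imprinted Dlk1-Dio3 region (2089 and 2193 CPM) and Mir134 of the same region, known from dendrites (816 and 988 CPM). Mir149 lay between Mir328 and Mir433 in mean level, with overlapping values. Mir383, named after its values were seen (319 and 340 CPM), had a lower mean than Mir137, but a higher level in replicate 2. Of the 17 tested genes 7 were higher in replicate 1, 5 were higher in replicate 2 and 5 did not pass, at a median log2 ratio of -0.13. Among all tested genes, 30.3% were higher in replicate 1 and 25.8% in replicate 2, at a median of -0.03. The widest difference was that of Mir153, named after its values were seen, at 461 and 56 counts. Among the 10 genes of that list with no product shared, 9 were detected, with a median of 318 CPM. Among the 8 with some or all products shared, 5 were detected, and the highest, Mir129-2, had a mean of 185 CPM. The other 3 genes of the list had no sequence to compare, and all 3 were detected. Across all genes with a sequence, 33.6% were detected with no product shared, 73.2% with some shared and 15.0% with all shared. Whether sharing plays a part in these levels was not tested.

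**Figure D5:**
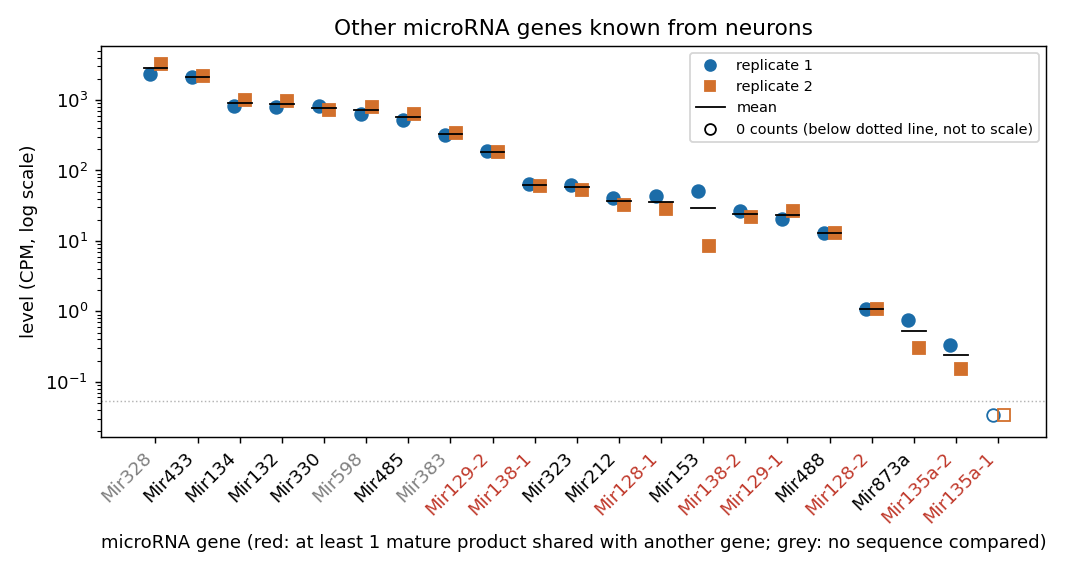
Level in CPM on a log scale (y axis) of 21 other microRNA genes known from neurons (x axis), ordered by mean, with circles for replicate 1, squares for replicate 2, lines for the mean and open symbols for 0 counts. Mir328 (2322 and 3297 CPM) and Mir433 (2089 and 2193 CPM) lie highest, Mir153 differs between them at 461 and 56 counts, and Mir135a-1 is at 0.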

How the data were processed

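Small RNA libraries (size range below 30, taken as nt) of adrenal gland total RNA were analysed from raw read counts per microRNA gene, which the authors deposited, made on mm10 with GENCODE M21 per the descriptions filed with them. Adapter trimming is named per the labels' protocols, and neither aligner nor counter is given in the sources used here. The tables have no header, and the count column on the strand of the gene was taken as the stranded column with the larger total. The 4 rows that name no gene were left out of library sizes. All 2202 identifiers matched GENCODE M21.

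CPM was computed over gene totals. Genes with at least 20 counts over both libraries were compared between libraries by an exact binomial test (two-sided) against TMM-scaled totals (edgeR 4.0.16 in R 4.3.3), adjusted by Benjamini-Hochberg with a threshold of 0.05. Log2 ratios add 0.5 counts to each library. Intervals and the floor of 3 counts cover counting error only. The test was run on counts simulated with counting error alone, which cannot show how it behaves where libraries vary in other ways. RefSeq sequences (GRCm38.p6, same coordinates as mm10) were matched by symbol. Alternatives covered scaling (total counts, DESeq2 1.42.0 size factors), filters, denominators, strand and leaving out a library. Genes named are all 10 of the group, up to 3 leading genes of each list, nearest genes in level and genes sharing a seed. Mir1a-2, Mir129-2, Mir135a-1, Mir153, Mir383 and the neighbours Mir3093, Mir3078, Gm24155 and Gm25641 were named outside this rule, after their values were seen. Genes and lists were chosen with earlier results of these data known.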

Additional observations from a re-analysis of the deposited data

How the results depend on the processing

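Of the 10 genes, 4 were detected at a minimum of 10 or 5 counts and without either library, and 3 at a minimum of 50. The number higher in replicate 1 was 3 with TMM, with DESeq2 size factors, with no filter and on either strand, and 2 with total counts. With all reads in the table as denominator, the mean levels were 1194 CPM for miR-149, 187 CPM for miR-137 and 10.3 CPM for miR-218. With the 20 most abundant genes left out of the denominator, they were 11007 CPM for Mir149, 1722 CPM for Mir137, 64.7 CPM for Mir218-2 and 29.9 CPM for Mir218-1, so a level in CPM depends on the denominator. On either strand the summed level was 23.9 CPM for miR-218 and 0.167 CPM for miR-124, the latter from 2 opposite-strand counts. The Mir218 genes had 0 opposite-strand counts in both libraries, so the change for miR-218 lies in the denominator. The levels of miR-149 and miR-137 also rose, to 2777 and 434 CPM. The Mir218-2 copy alone gave 14.8 CPM. Log2 ratios kept their direction over all settings, from -0.63 to -0.52 for Mir137, -0.56 to -0.44 for Mir149, -0.51 to -0.39 for Mir218-2 and 0.12 to 0.23 for Mir218-1. The adjusted p of Mir218-2 ran from 0.0180 to 0.0723 (exact binomial test), above the threshold of 0.05 with total counts alone. A log2 ratio cannot be had without either library. No paired analysis was possible because the series has 1 group. Depth limits Mir218-1, whose interval takes in no difference and differences in both directions, and reads with several alignments limit every statement on miR-9, miR-124 and miR-218.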
